A study of Arabidopsis thaliana with 12 samples.

Results

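The callose synthases are the large plasma membrane enzymes, named *CALS* or *GSL*, that make callose in plants. They were taken by gene identifier as 10 rows of a table of 19802 genes measured in *Arabidopsis thaliana* roots, and all 10 were found. The rule used no measured value. The family has 12 genes in *A. thaliana*, and the remaining ones, *CALS4* (GSL9, AT5G36870) and *CALS6* (GSL11, AT3G59100), were also in the table and are given only beside the members that they resemble.

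Callose is a beta-1,3-linked glucan that callose synthases make from UDP-glucose. It is laid down in the cell plate of dividing cells, around plasmodesmata, where it narrows the channel between neighbouring cells, in the sieve plates of the phloem, in the walls around developing pollen, and at wounds and sites of fungal attack. In roots short of phosphate (Pi), callose deposition in the root tip is known to depend on the iron-oxidising LPR1 pathway, and it accompanies the stop of primary root growth. Plasmodesmal callose is removed by beta-1,3-glucanases and bound by PDCB proteins.

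The study compared Col-0, the wild-type ecotype, with CRR OE, the same ecotype carrying a *CRR-GFP* fusion driven by the CaMV 35S promoter, in order to learn how raised amounts of CRR, a ferric reductase of the plasma membrane, act on the root response to low Pi. Seedlings were grown for 7 days on plates with 1 mM Pi (+Pi) or with none added (–Pi), which gives 4 groups of 3 libraries, each from pooled roots of several seedlings. The 35S promoter is active in most cell types, so the transgene was also expressed in cells where *CRR* normally is not. Whole roots were used, and in such bulk samples fewer cells of a type and less RNA per cell cannot be told apart.

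The values are the authors' means of log2 CPM, a read count scaled to a common library size, 1 per group. No value per library was used here, so no replicate error, confidence interval or test stands behind any difference below, and the depth of the libraries is unknown from the table. Each difference is a description of 2 means. A difference of at least 0.5 on the log2 scale is called past the fold, and the share of all 19802 genes past it is given as the background.

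The values followed the labels. *CRR* (AT3G25290) had 5.96 (+Pi) and 5.95 (–Pi) log2 CPM in the wild type, and 12.70 and 12.72 in the overexpressing line, which includes reads of the transgene. *SPX1* (AT5G20150), which responds to Pi starvation, was higher in –Pi than in +Pi on the log2 scale, by 6.70 in the wild type and by 6.76 in the overexpressing line. All 8 markers of root cell layers were in the table, from 0.74 to 6.08 log2 CPM in Col-0 +Pi. Not all were level between the groups. In both lines 2 of 8 were higher in –Pi past the fold, against 8.48% (Col-0) and 6.73% (CRR OE) of all genes. These were *EXP7*, by 1.25 (Col-0) and 1.37 (CRR OE), and *COBL9*, by 0.90 and 0.92. In –Pi *WOX5* stood at -0.76, CRR OE minus Col-0, 1 of 8 against 3.1% of all genes lower. *WOX5* was the lowest of the 8 in –Pi, at 1.01 (Col-0) and 0.25 (CRR OE) log2 CPM, and low genes are the least precise. Of 4 leaf markers 3 were in the table, at a summed 17.5 to 27.9 CPM over the groups. Past the fold, 2 of these 3 were lower in –Pi in Col-0, against 7.68% of all genes, and 1 in CRR OE, against 4.24%. For CRR OE against Col-0, 1 was lower in +Pi (1.17% of all genes). In –Pi 1 was higher (3.68%) and 1 lower (3.1%). Of 5 markers of pollen and tapetum none was in the table.

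The members are long genes with long coding sequences, from 5307 nt in *CALS11* to 5931 nt in *CALS8*. In the RefSeq annotation *CALS11* (AT4G04970) had 4 exons and *CALS12* (AT4G03550) had 5, while the other members had 41 to 51. Among the 45 pairs of members, the identity of aligned coding sequences ranged from 48.7% to 87.4%, with a median of 54.1%. *CALS1* and *CALS2* were the closest pair at 87.4%, and the next, *CALS1* and *CALS3*, stood at 72.6%. Only the closest pair shared a run of 50 identical bases, and no other pair of members had a run above 32.

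The longest run shared by *CALS1* and *CALS2* is shown because a read lying wholly within it would match both genes. Whether any read was counted for the wrong gene was not tested. It lies in the coding part numbered 20 of both genes, at chr1:1654319-1654368 on the minus strand and chr2:13594083-13594132 on the plus strand (TAIR10.1 sequence from RefSeq). The windows shown add the next 30 bases, to chr1:1654289-1654368 and chr2:13594083-13594162, and capitals mark the 50 shared bases.
CALS1: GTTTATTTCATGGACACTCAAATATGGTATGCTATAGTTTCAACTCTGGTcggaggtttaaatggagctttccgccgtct
CALS2: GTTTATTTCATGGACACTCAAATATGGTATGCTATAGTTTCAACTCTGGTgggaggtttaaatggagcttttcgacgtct
The capitals are the same in both genes, and single bases differ in the stretch after them. The length of the reads is not given in the sources used here. Of the genes outside the members, *CALS4* shared a run of 62 bases with *CALS2* at 76.0% identity and one of 38 bases with *CALS1* at 74.0%.

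Regulatory sequence before the genes was also read, as the 250 bases before each annotated start. The windows of *CALS1*, *CALS2* and *CALS12* are shown: *CALS1* was the only member past the fold in any comparison, *CALS2* is its closest relative, and *CALS12* held the only match to P1BS, the element bound by the Pi starvation regulator PHR1. Capitals mark the P1BS match. The windows lie at chr1:1659612-1659861 on the minus strand, chr2:13588272-13588521 on the plus strand and chr4:1573016-1573265 on the plus strand (TAIR10.1, RefSeq).
CALS1: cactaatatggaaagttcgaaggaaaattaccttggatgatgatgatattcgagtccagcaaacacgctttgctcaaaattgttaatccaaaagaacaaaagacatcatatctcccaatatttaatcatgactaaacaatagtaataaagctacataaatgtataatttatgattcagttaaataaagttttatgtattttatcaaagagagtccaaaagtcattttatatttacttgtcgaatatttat
CALS2: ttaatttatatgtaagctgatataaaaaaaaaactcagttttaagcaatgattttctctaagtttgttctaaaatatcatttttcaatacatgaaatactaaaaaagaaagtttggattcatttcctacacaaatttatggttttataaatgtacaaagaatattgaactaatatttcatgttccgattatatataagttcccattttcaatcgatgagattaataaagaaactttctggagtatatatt
CALS12: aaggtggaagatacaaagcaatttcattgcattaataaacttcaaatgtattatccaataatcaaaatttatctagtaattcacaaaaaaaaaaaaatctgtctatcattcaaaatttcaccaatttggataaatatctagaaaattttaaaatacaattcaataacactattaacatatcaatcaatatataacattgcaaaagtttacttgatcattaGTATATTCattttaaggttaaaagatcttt
The P1BS letters GNATATNC, which read the same on both strands, were found in 1 of 10 members and in 5.54% of 19782 windows of the same length. The W-box core TTGAC, bound by WRKY factors and searched on both strands, was found in 2 of 10 members, *CALS9* and *CALS10*, and in 45.35% of all windows. The 2 motifs share no letters that could make one match count as both. A match describes the letters of the window only.

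Transcript levels of the members spanned a wide range. Expressed as CPM per kb of coding sequence, computed from back-transformed group means, *CALS1* was the highest in Col-0 +Pi at 41.7. It was followed by *CALS3* at 29.3, *CALS9* at 27.7, *CALS10* at 26.7 and *CALS2* at 26.3, which stood close to each other. Below these came *CALS12* at 13.4, *CALS11* at 8.66, *CALS8* at 8.48 and *CALS7* at 3.95, and *CALS5* was the lowest at 0.136. With no spread over libraries it cannot be said which neighbours in this order differ, and *CALS11* and *CALS8* also change places when the level is not divided by length.

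**Figure D1:**
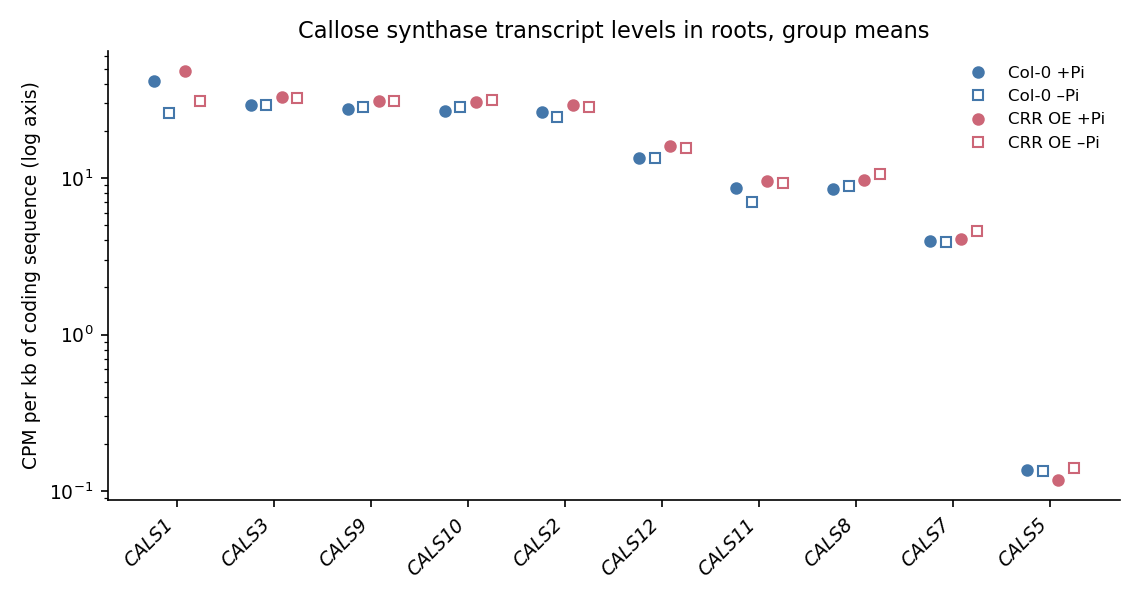
Levels of the 10 callose synthases in roots, as CPM per kb of coding sequence on a log axis, with 1 point for the mean of each group (circles +Pi, squares –Pi, blue Col-0, red CRR OE). Genes are ordered by their level in Col-0 +Pi. In both lines the square of *CALS1* lies below its circle, at 26.2 below 41.7 in Col-0 and at 31.2 below 48.2 in CRR OE, while *CALS5* stays at 0.118 to 0.140.

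The top of the order differed between the media in both lines. In –Pi, *CALS3* was the highest per kb, with 29.2 in the wild type and 32.4 in CRR OE. *CALS1* had 26.2 in Col-0 –Pi, below *CALS9* and *CALS10* too, and 31.2 in CRR OE –Pi, below *CALS10*. The lower end kept one order, *CALS12* above the group of *CALS8* and *CALS11*, then *CALS7*, then *CALS5*, in all 4 groups. Summed over the members, the level was 1072 CPM in Col-0 +Pi, 979 in Col-0 –Pi, 1216 in CRR OE +Pi and 1121 in CRR OE –Pi. The share of *CALS1* in that sum was 22.8% (+Pi) and 15.7% (–Pi) in Col-0, beside 23.2% and 16.3% in CRR OE.

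*CALS1* (GSL6, AT1G05570, chromosome 1, 1647575 to 1659611, minus strand) makes callose at the cell plate and at plasmodesmata. Its mean was 7.93 log2 CPM in Col-0 +Pi, 7.26 in Col-0 –Pi, 8.14 in CRR OE +Pi and 7.51 in CRR OE –Pi, and both –Pi means lay below both +Pi means. The difference of –Pi minus +Pi was -0.67 in Col-0, a linear ratio of 0.629, and -0.63 in CRR OE, a ratio of 0.648. *CALS1* was the only member past the fold in either line, 1 of 10. Among all genes 7.68% were lower by at least 0.5 in the wild type, and 4.24% in CRR OE, so that 1 member of 10 is close to the background. Of all genes, 4.79% had a difference at or below that of *CALS1* in Col-0, and in CRR OE 2.73% did. No member was higher by 0.5 in –Pi, against 8.48% (Col-0) and 6.73% (CRR OE) of all genes.

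*CALS2* (GSL3, AT2G31960, chromosome 2, 13588522 to 13600430, plus strand), the closest relative of *CALS1* by the shared sequence above, did not show this pattern. Its means were 7.26, 7.17, 7.42 and 7.38 log2 CPM in the order Col-0 +Pi, Col-0 –Pi, CRR OE +Pi and CRR OE –Pi, so that –Pi minus +Pi was -0.10 (Col-0) and -0.03 (CRR OE). The means of the pair were thus closer in –Pi than in +Pi in both lines, with *CALS1* the higher of them throughout. *CALS4*, the next of these close relatives, was low throughout, with means of 1.85, 1.14, 1.99 and 1.48 log2 CPM, and its –Pi minus +Pi difference was -0.72 in the wild type and -0.51 in CRR OE. An annotated gene, AT1G04393, lies inside *CALS1* on the same strand and AT2G08500 overlaps *CALS2* on the opposite strand. Neither is in the table, and whether strand was used in counting is not given in the sources used here.

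The other members with a role in cell division showed little difference between the media. *CALS10* (GSL8, AT2G36850, chromosome 2, 15454671 to 15469964, minus strand) is needed for cell plates, for stomatal patterning and for the callose of plasmodesmata, and its means were 7.25, 7.34, 7.45 and 7.50 log2 CPM in the same order of groups. *CALS9* (GSL10, AT3G07160, chromosome 3, 2264862 to 2279916, minus strand), which acts in the division of microspores, had means of 7.30, 7.34, 7.47 and 7.47. For *CALS10* –Pi minus +Pi gave 0.09 (Col-0) and 0.05 (CRR OE), and for *CALS9* 0.04 and 0.00. Markers of dividing cells, 4 of 4 in the table, summed to between 174.5 and 186.1 CPM over the 4 groups. None of these markers was past the fold in any comparison, against 0.975% to 8.48% of all genes per comparison and direction. With 4 genes, a count of 0 is near that background. AT2G36854, not in the table, overlaps *CALS10* on the opposite strand.

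*CALS3* (GSL12, AT5G13000, chromosome 5, 4110171 to 4121489, minus strand) makes plasmodesmal callose in the root, where gain-of-function alleles block movement between cells. Its means were 7.43, 7.42, 7.59 and 7.57 log2 CPM, and –Pi minus +Pi was -0.01 (Col-0) and -0.02 (CRR OE). *CALS8* (GSL4, AT3G14570, chromosome 3, 4892410 to 4902880, plus strand), linked to plasmodesmal callose under oxidative stress, had means of 5.65, 5.73, 5.85 and 5.97, with differences of 0.08 and 0.12. Neither came near the fold in either line.

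*CALS7* (GSL7, AT1G06490, chromosome 1, 1978378 to 1989409, plus strand) makes the callose of phloem sieve plates. Its means were 4.54, 4.53, 4.58 and 4.76 log2 CPM, highest in CRR OE –Pi. Between the media it differed by -0.01 (Col-0) and 0.18 (CRR OE). All 4 phloem markers (*APL*, *SUC2*, *SEOR1* and *SEOa*) were in the table, and they summed to 180.7, 134.7, 167.2 and 193.4 CPM in the same order of groups. Their median difference between the media was -0.34 (Col-0) and 0.21 (CRR OE). *SUC2*, a sucrose transporter of companion cells, differed by -0.96 in Col-0 and by 0.29 in the overexpressing line. In Col-0 it was the only 1 of 4 past the fold, against 7.68% of all genes lower. Between the lines in –Pi *SUC2* stood at 0.99, CRR OE minus Col-0, 1 of 4 against 3.68% of all genes higher. The response in CRR OE minus that in Col-0 was past the fold in 3 of 4, against 5.04% of all genes. These were *SUC2* at 1.26, *SEOa* at 0.54 and *SEOR1* at 0.51. The part of phloem content in the values of *CALS7* was not tested.

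*CALS12* (GSL5, also PMR4, AT4G03550, chromosome 4, 1573266 to 1579820, plus strand) makes the callose of wounds and of papillae at fungal attack. Its means were 6.16, 6.16, 6.42 and 6.37 log2 CPM, so that within each line the means of the media lay close to each other. The difference between the media was -0.00 (Col-0) and -0.05 (CRR OE).

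*CALS11* (GSL1, AT4G04970, chromosome 4, 2536925 to 2543273, plus strand), which acts with *CALS12* in pollen tetrads, had means of 5.52, 5.23, 5.68 and 5.63 log2 CPM. It had the second lowest response among the members in Col-0, -0.29, and a value of -0.04 in CRR OE. *CALS6*, outside the members, had nearly the same profile, with differences of -0.27 and -0.03. *CALS5* (GSL2, AT2G13680, chromosome 2, 5694381 to 5706442, plus strand), needed for the callose of the pollen wall, was barely measured in roots, with means of -0.35, -0.37, -0.56 and -0.31 log2 CPM. All 4 means were below 1 CPM, where counting error weighs most, and the media differed by 0.24 in CRR OE and by -0.02 in Col-0.

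**Figure D2:**
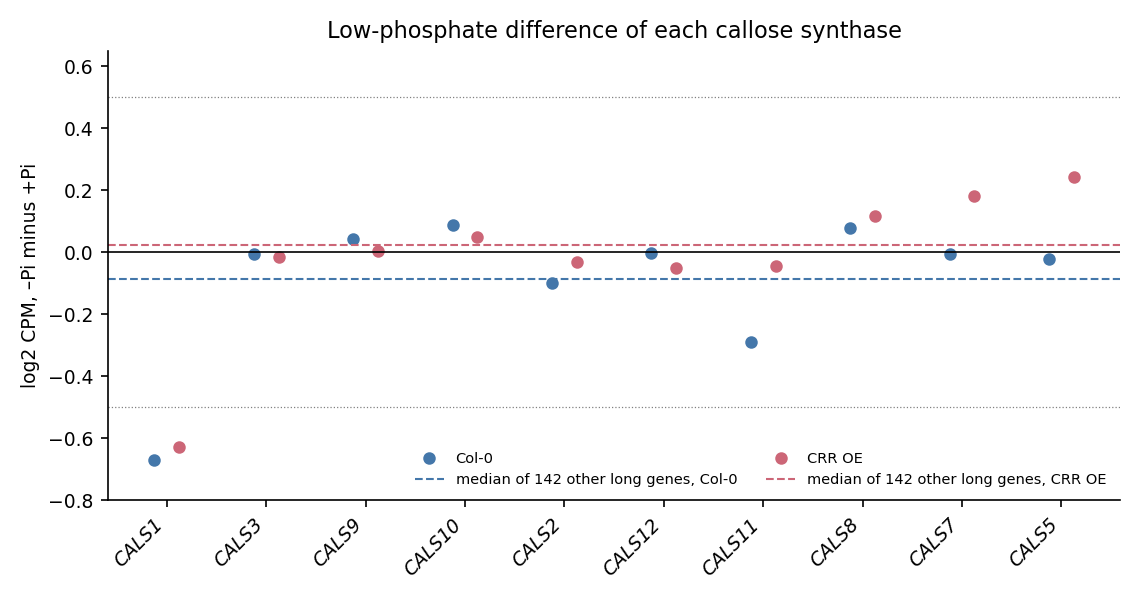
Difference between –Pi and +Pi for each callose synthase, in log2 CPM, in Col-0 (blue) and CRR OE (red), with the fold of 0.5 as dotted lines and the median of 142 other long genes as dashed lines. *CALS1* is the only gene beyond a dotted line, at -0.67 and -0.63, and the remaining points lie between -0.29 and 0.24.

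Taken over the 10 members, the response to –Pi was centred on 0 in both lines. In Col-0, 3 members were above 0 and 7 below, with a median of -0.01 against -0.02 for all genes. In CRR OE, 5 were above and 5 below, with a median of -0.01, the same as that of all genes to 2 decimals. Because the members have unusually long coding sequences, they were also set beside the 142 other genes of the table with a coding length of at least 5000 nt and a mean of at least 4 log2 CPM. Those had a median of -0.09 (Col-0) and 0.02 (CRR OE). None of them was as low as *CALS1* in either line, their lowest values being -0.50 (Col-0) and -0.34 (CRR OE). *CALS11* was less apart from them, with 4 of the 142 at or below it in Col-0.

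The second comparison was between the lines in one medium. In +Pi, 9 of 10 members had a higher mean in the overexpressing line, with a median of 0.16 on the log2 scale against -0.00 for all genes, and *CALS5* was the exception at -0.20. *CALS12* had the highest value, 0.26, from 6.16 to 6.42 log2 CPM. None was past the fold in either direction, against 0.975% of all genes higher and 1.17% lower. In –Pi, all 10 were higher in CRR OE, from 0.06 in *CALS5* to 0.40 in *CALS11*, with a median of 0.21 against 0.00 for all genes. Again none was past the fold, against 3.68% of all genes higher and 3.1% lower.

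**Figure D3:**
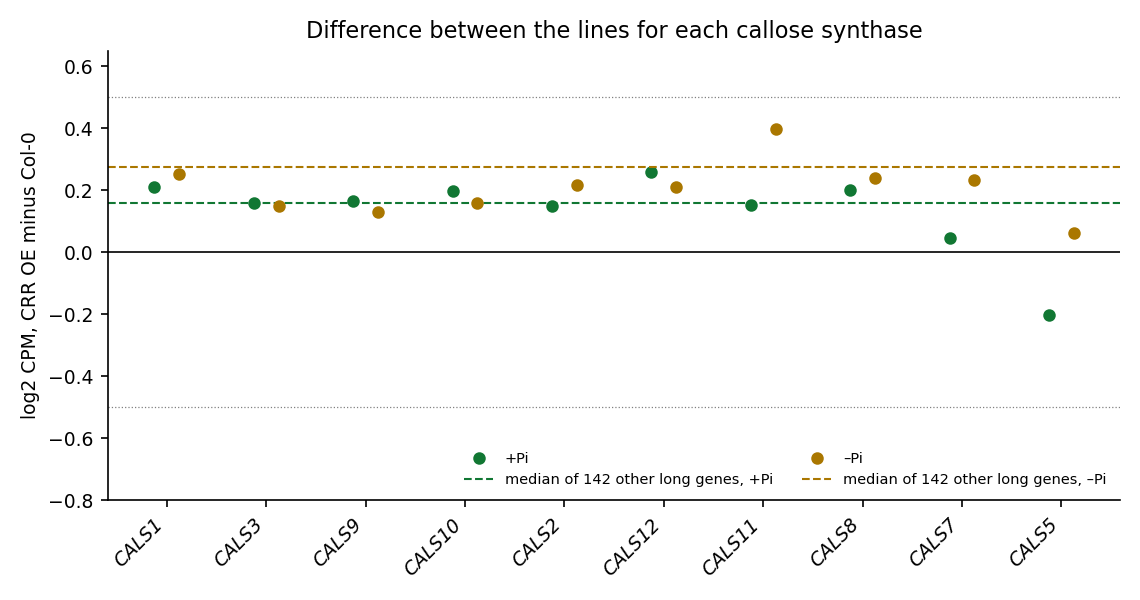
Difference between CRR OE and Col-0 for each callose synthase, in log2 CPM, in +Pi (green) and –Pi (ochre), with the fold of 0.5 as dotted lines and the median of 142 other long genes as dashed lines. Most points lie above 0 and near the dashed lines at 0.16 and 0.28, and no point crosses a dotted line.

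Other long genes were also higher in CRR OE, with nearly the same median as the members in +Pi and a higher one in –Pi. Of the 142, 139 were higher in CRR OE in +Pi (97.9%) with a median of 0.16, and all 142 in –Pi (100%) with a median of 0.28. Taken off the callose synthase median, theirs left 0.003 in +Pi and -0.06 in –Pi, where *CALS11* was the only member above their median. At the upper end, 13 of the 142 had a value at or above that of *CALS12* in +Pi, and 24 at or above that of *CALS11* in –Pi. At the lower end, 0 of the 142 were at or below *CALS5* and 7 at or below *CALS7* in +Pi, and 4 at or below *CALS5* in –Pi. *CALS5* is much lower in level than these genes, which all had a mean of at least 4 log2 CPM. Over the table, for genes with a mean of at least 4 log2 CPM, the median difference between the lines was higher in each longer bin in +Pi, and in –Pi from 500 nt upwards. In –Pi it was -0.01 for 938 genes below 500 nt, -0.04 for 2716 genes from 500 to below 1000 nt, -0.02 for 4971 genes from 1000 to below 2000 nt, 0.12 for 571 genes from 3000 to below 4000 nt and 0.28 for the 142 of at least 5000 nt. What moves with length here was not tested.

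**Figure D4:**
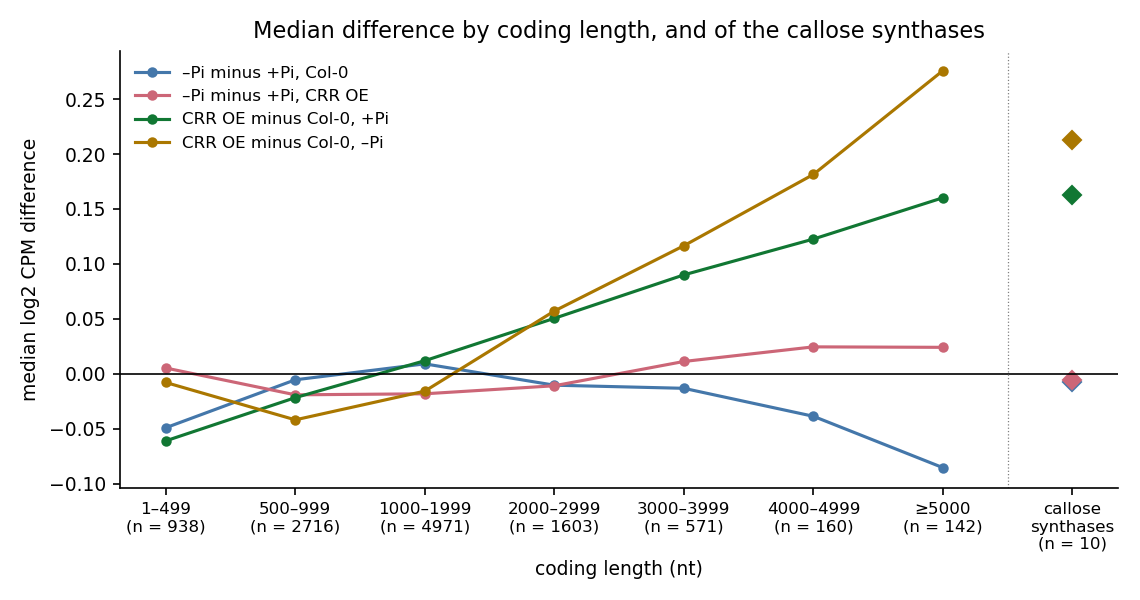
Median difference in log2 CPM against coding length in nt, in bins with their number of genes (callose synthases left out, mean of at least 4 log2 CPM), for the 4 comparisons, and at the right the median of the 10 callose synthases as diamonds. The lines for CRR OE minus Col-0 reach 0.16 in +Pi and 0.28 in –Pi in the longest bin, and the diamonds stand at 0.16 and 0.21.

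The third comparison was the difference of the 2 responses, CRR OE minus Col-0. It was above 0 in 6 members and below in 4, with a median of 0.04 against 0.00 for all genes and 0.11 for the other long genes. *CALS1* differed by 0.04 between the lines, and *CALS3* by -0.01. Higher values were found for *CALS5* at 0.27, *CALS11* at 0.25 and *CALS7* at 0.19, but that of *CALS5* was 0.11 with 1 CPM added before the logarithm, below *CALS11* at 0.24 and *CALS7* at 0.18. No member was past the fold, against 5.04% of all genes above and 4.05% below.

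Profiles over the 4 means were compared by the root mean square of the differences after each gene's own mean was taken off, in log2 units. *CALS3* and *CALS9* were the most alike members at 0.019, followed by *CALS9* and *CALS10* at 0.028 and *CALS8* and *CALS10* at 0.031. *CALS11* and *CALS6* were as close, at 0.018. For *CALS1*, the member with the widest range, the nearest family gene was *CALS4* at 0.045. Over the whole table its 5 nearest profiles were those of AT5G53110, annotated as a RING/U-box protein, at 0.018, AT5G63020 at 0.029, AT1G34420 at 0.031, *CYP705A25* at 0.035 and AT5G01250, annotated as a glycosyltransferase, at 0.036. With 4 points per gene such likeness is a description only.

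Genes that act with callose were set beside the synthases. The plasmodesmal beta-1,3-glucanases, which break callose down, were all 4 in the table. None of the 4 was past the fold in any comparison, against 0.975% to 8.48% of all genes per comparison and direction. The glucanase differences between the media in Col-0 lay between 0.15 and 0.18, with a median of 0.17. Their median in CRR OE was 0.03. Of 5 PDCB genes, whose proteins bind callose at plasmodesmata, 4 were in the table and none was past the fold, against the same shares. The PDCB medians were 0.19 (Col-0) and -0.03 (CRR OE), with the highest Col-0 value in *PDCB3*, 0.23. The pathogenesis-related glucanases *BG1*, *BG2* and *BG3* were not in the table. These lists thus held no measured gene with a difference like that of *CALS1*. With 4 measured genes in a list, a count of 0 is near the background.

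The 8 PDLP genes, whose receptor-like proteins sit at plasmodesmata and promote callose there, were all measured. In Col-0, 2 of 8 were lower in –Pi past the fold, *PDLP3* at -0.59 and *PDLP8* at -0.53, against 7.68% of all genes, and none was higher, against 8.48%. In CRR OE none was past the fold (6.73% of all genes were higher and 4.24% lower), *PDLP3* standing at -0.42 and *PDLP8* at -0.24. The list's medians between the media were -0.19 (Col-0) and -0.06 (CRR OE). Between the lines in –Pi *PDLP1* stood at -0.51, CRR OE minus Col-0, and was the only one past the fold, against 3.1% of all genes. *PDLP1* was the lowest of the list in –Pi, at 0.85 (Col-0) and 0.34 (CRR OE) log2 CPM, and low genes are the least precise.

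Sucrose synthases supply UDP-glucose, and 6 of 6 were in the table. In Col-0, 2 were higher in –Pi past the fold, *SUS4* by 1.69 and *SUS3* by 0.73, against 8.48% of all genes. In CRR OE 1 of 6 was, *SUS4* by 1.25, against 6.73% of all genes, and *SUS3* stood at -0.21. The difference of the responses was -0.94 for *SUS3*, 1 of 6 past the fold, against 4.05% of all genes lower. Between the lines in –Pi *SUS3* stood at -0.56, CRR OE minus Col-0, again 1 of 6, against 3.1% lower. Cellulose synthases use the same substrate for another wall glucan, and 9 of 10 were in the table. None was past the fold between the media, against 8.48% of all genes higher and 7.68% lower in Col-0. In CRR OE these shares were 6.73% and 4.24%. *CESA4*, *CESA7* and *CESA8*, which act in the secondary walls of xylem, had higher –Pi means in CRR OE, by 0.59, 0.60 and 0.61. That is 3 of 9 against 3.68% of all genes. The cellulose synthase medians between the lines were 0.17 in +Pi and 0.24 in –Pi, beside 0.16 and 0.21 for the callose synthases. The 2 lists differ in length, the cellulose synthases having a median coding length of 3237 nt. In the bin from 3000 to below 4000 nt the medians were 0.09 (+Pi) and 0.12 (–Pi).

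**Figure D5:**
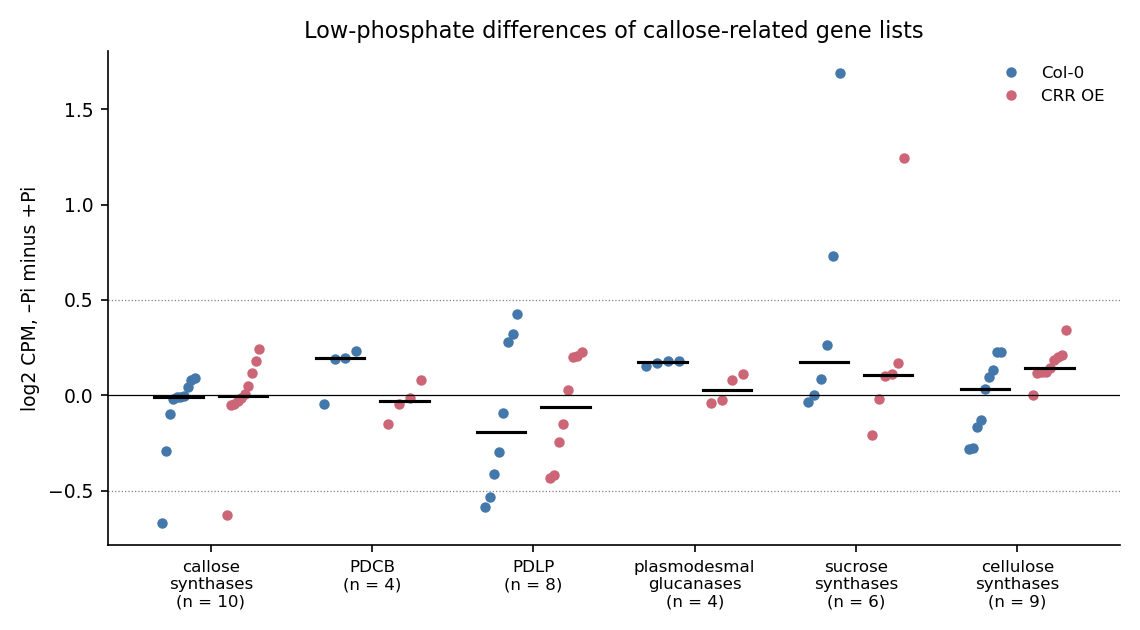
Difference between –Pi and +Pi in log2 CPM for the genes of 6 lists, 1 point per gene, Col-0 in blue and CRR OE in red, with each list's median as a black bar and the fold of 0.5 as dotted lines. The callose synthases lie around 0 apart from *CALS1* in both lines, and the points farthest from 0 are *SUS4* at 1.69 and 1.25.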

How the data were processed

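RNA of 12 root libraries in 4 groups was measured. Reads were trimmed by the authors (Cutadapt 1.8), mapped to TAIR10 (STAR 2.5.3a) and assigned to genes (htseq-count 0.9.1). Genes under 1 CPM in every library had been dropped. The deposited values are log2 CPM after TMM scaling (edgeR 3.24.3), given by the authors as 1 mean per group. RSEM 1.2.31 and R 3.5.3 are also listed in the submitters' processing notes. The 5 deposited comparison tables hold the authors' fold changes, p-values and adjusted p-values and were not used. The depth of each library is not in the table, and low genes are the least precise.

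Differences of group means were computed in Python 3.11.15 with pandas 2.3.3 and numpy 2.4.6, with no test, since 1 mean per group allows none. The counting of calls was tested on simulated data. Coding lengths, exons and sequences came from RefSeq (TAIR10.1). Of 19802 genes, 19783 matched it and 19781 had the same start and end. Identities were computed with Biopython 1.88. Alternatives were 1 CPM added before the logarithm, a minimum mean of 0 log2 CPM, folds of 1 and 0.25, and the median of all genes or of the other long genes subtracted. The last was chosen after seeing the data. All members were named. From the glucanase, PDCB, PDLP, sucrose synthase and cellulose synthase lists, at most the 2 with the largest absolute difference in Col-0 were named, and any past the fold. The marker lists were given mainly by counts, ranges, sums or medians, and not every marker past the fold was named. The members and lists were chosen with earlier results of these data known.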

Additional observations from a re-analysis of the deposited data

How the results depend on the processing

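Of the settings run, only another fold changed the counts of members past it. At a fold of 1, the –Pi response was past it downwards for 0 members in the wild type, against 2% of all genes, and for 0 in the overexpressing line, against 0.853%. At 0.25 it was so for 2 members in Col-0 (*CALS1* and *CALS11*), against 17.1% of all genes. At the same fold 1 member had a higher +Pi mean in CRR OE (*CALS12*, against 4.98%), 2 had a higher –Pi mean there (*CALS1* and *CALS11*, against 12.3%) and 1 had a higher response in CRR OE (*CALS5*, against 13.4%). With 1 CPM added, *CALS5* went from -0.20 to -0.09 (+Pi) and from 0.06 to 0.03 (–Pi) between the lines, from 0.24 to 0.10 in the CRR OE response and from 0.27 to 0.11 in the difference of the responses. With 1 CPM added, with a minimum mean of 0 log2 CPM (which leaves out *CALS5*), and with the median of all genes or of the other long genes subtracted, none of the 10 counts moved and no direction of a called value turned. With that of the long genes taken off, a choice made after seeing the data, *CALS1* stood at -0.58 (Col-0) and -0.65 (CRR OE). Directions of values that were not called did turn there. For CRR OE against Col-0, the members above 0 went from 9 to 5 of 10 in +Pi and from 10 to 1 of 10 in –Pi. The same subtraction put 0.515% of all genes higher and 2.71% lower for CRR OE against the wild type in +Pi, 1.32% and 10.8% for the same in –Pi, 3.42% and 6.11% for the difference of the responses, and 10.1% and 6.03% for the Col-0 response. Without division by coding length, 4 members changed place in the order of Col-0 +Pi.

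No paired analysis was possible because the table holds 1 mean per group and no column per library. Leaving out a replicate was not run for the same reason. Differences of 0.2 to 0.3, as for *CALS5* or *CALS11*, therefore have no error to be read against, and a 1-library effect in *CALS1* could not be looked for.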
